A study of Mus musculus with 2 samples.

Results

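The small GTPases of the Rab, Arf, Arl and Sar1 families were followed in the RNA of adipocyte-derived microvesicles (ADMs) and of the adipocytes that released them. Members were all probes whose gene name on the array is a Rab, Arf1 to Arf6, an Arl or a Sar1, with no use of their signal. This gave 152 of 41174 probes and 82 of 27962 gene names, made up of 55 Rab, 6 Arf, 19 Arl and 2 Sar1 genes. The adipocytes came from 3T3-L1, a mouse preadipocyte line in long use, grown with 10% fetal serum and turned into adipocytes with insulin at 10 µg/ml, IBMX at 0.5 mM and dexamethasone at 0.25 µM. After 11 days vesicles were spun from the medium by ultracentrifugation and the cells were harvested, so both RNAs of a replicate come from the same line, drug treatment and day. The 2 biological replicates were 1 array each, with 250 ng of each RNA labelled; Cy5 marked the ADM RNA in replicate 1 and the cell RNA in replicate 2, and Cy3 the other RNA. A pellet of this kind is defined by sedimentation alone, and no marker was used to sort the vesicles, as far as the labels say. Every direction rests on these dye labels, and an exchange of the RNAs on both arrays would turn it, so each RNA is named by its label, as ADM-labelled or cell-labelled.

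Rab, Arf, Arl and Sar1 proteins are molecular switches: bound to GTP they sit on a membrane and recruit coats, motors, tethers and fusion machinery, and bound to GDP they are released into the cytosol or inactive. Each works on its own set of membranes, so that the family as a whole marks the routes between endoplasmic reticulum, Golgi, endosomes, lysosomes and plasma membrane. In adipocytes these routes carry the glucose transporter GLUT4 to the surface in response to insulin, and several of the same proteins are known from the release of extracellular vesicles. The arrays measured their transcripts and not the proteins. A ratio of bulk RNAs also cannot tell more vesicles that hold a transcript from more copies of it per vesicle.

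Values are given in scanner units of net signal (spot minus local background, before normalization), which are compared only within a probe, and as the log2 ratio of ADM-labelled over cell-labelled RNA after loess. Loess sets each probe against probes of similar brightness, so a ratio of 0 is the trend of those probes and not an equal amount. The alternative of median centring leaves that trend in, and there the median of all 18117 tested probes was 2.04 in place of 0.07. The ADM-labelled channel was the brighter for these transcripts: over the 58 tested members that were well above background in both RNAs, the median net signal ratio was 79.7 in replicate 1 and 10.3 in replicate 2, against 63.9 and 8.78 over all 7920 such probes. Adipocyte identity was visible in both RNAs, with 10 of 10 marker genes well above background in the ADM-labelled and 9 of 10 in the cell-labelled RNA, where leptin (Lep) was the exception. Net signals were also summed over all probes of each marker set, as a description in which bright probes weigh most. The adipocyte sum was 1346000 to 2729000 in ADM-labelled and 10790 to 86720 in cell-labelled RNA. Preadipocyte and fibroblast markers were at 6 of 6 and 4 of 6 genes, with sums of 90090 to 235100 and 814.3 to 2959. Of 6 blood cell markers 2 were above background in the ADM-labelled and 1 in the cell-labelled RNA, with sums of 111.1 to 262.5 and 149.4 to 219.8; Pecam1 and Cdh5 of endothelium and Alb of liver were above background in neither.

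Most GTPase transcripts were seen in the ADM-labelled RNA. There, 109 of the 152 member probes (71.7%) were well above background on both arrays, covering 63 of 82 genes, against 45.8% of all probes. In the cell-labelled RNA 63 probes (41.4%, 45 genes) were, against 23.8% of all probes, and each of these was also seen in the ADM-labelled RNA. No member was seen on both arrays in cell-labelled RNA but on neither in ADM-labelled RNA, a pattern that 1.77% of all probes had. The reverse pattern held for 24 member probes (15.8%, 18 genes), against 13% of all probes. Some of those genes had another probe that was seen in both RNAs. For another 22 probes (14.5%, against 11.2% of all probes) the cell-labelled RNA was above background on array 2 and not on array 1. Detection in that RNA thus differed between the arrays, and array and dye cannot be told apart. Detection therefore describes signal on these arrays, in which the cell-labelled channel was dim.

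By probe, 38 of the 152 members (25.0%) were above background in neither RNA on either array, against 43.2% of all probes. The GTPases with no probe above background in either RNA on any array were 18 genes. They were Rab3b and Rab3c, which act in regulated secretion of neurons and endocrine cells; Rab26, Rab27a, Rab27b and Rab37, linked to secretory granules; Rab17 and Rab25, of polarised epithelia; Rab38, of pigment granules; and Rab9b, Rab19, Rab36, Rab39, Rab39b, Arl5c, Arl11, Arl13a and Arl14. The highest net signal among their probes was 29.2 in replicate 1 and 11.3 in replicate 2 in ADM-labelled RNA, and 12.3 and 17.1 in cell-labelled RNA. Tested members had median net signals of 1530 and 555 in ADM-labelled and 22.9 and 54.0 in cell-labelled RNA. Transcripts of these 18 genes were not detectable at the signal these arrays gave. Detection did not follow these roles throughout. Rab3a, a relative of Rab3b and Rab3c, was well above background in both RNAs on both arrays, with 4964 and 1698 in ADM-labelled and 46.4 and 153 in cell-labelled RNA.

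A member was tested where it was well above background on both arrays in at least 1 of the RNAs and had a value on both. This left 101 probes of 61 genes; 43 of them passed through the ADM-labelled RNA alone and 0 through the cell-labelled RNA alone. Of the other 51 probes, 38 had no signal above background, 5 had it on 1 array only, and 8 lacked a value because a spot flag removed an array. By limma with Benjamini-Hochberg adjustment over all 18117 tested probes, 6 member probes of 5 genes were higher in the ADM-labelled RNA (5.94% of those tested, against 5.53% of all probes) and 5 probes of 5 genes were lower (4.95%, against 10.9%). The share that was higher is near the background. All 11 were well above background in both RNAs on both arrays. The calls rest on leaving out spots whose local background was an outlier, a step that an earlier analysis took after it had found no call without it; with those spots kept, limma called 0 members (1 at an unadjusted p under 0.05) and 0 of 19807 probes (677 at an unadjusted p under 0.05), and the cause was not tested.

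**Figure D1:**
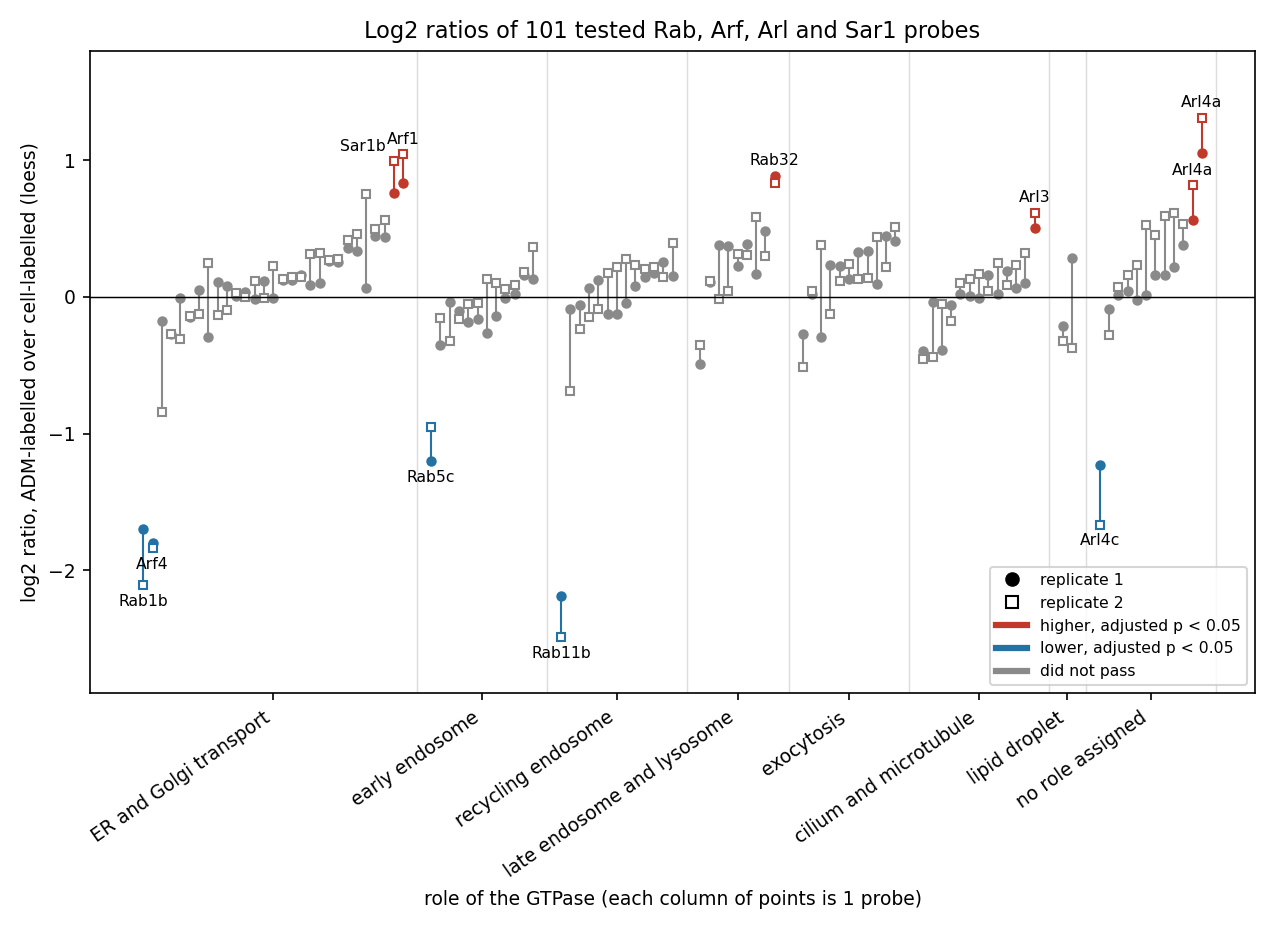
Log2 ratio of ADM-labelled over cell-labelled RNA after loess (vertical axis) for the 101 tested probes, grouped by the role of the GTPase; circles are replicate 1, open squares replicate 2, and a line joins the arrays of a probe. The 6 probes called higher (red) and 5 called lower (blue) are named, and the other 90 (grey) had means between -0.51 and 0.50.

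After loess the tested members lay close to the brightness trend. For 43 of them the cell-labelled RNA was not well above background on both arrays, so closeness there says little of that RNA. The median of the 101 ratios was 0.11 (0.08 in replicate 1 and 0.13 in replicate 2), beside 0.07 over all tested probes, and 88 of them (87.1%) lay within 0.5 log2 units of 0, against 74.5% of all probes. The arrays gave the same sign for 78.2% of members and 81.0% of all probes, and the median SD of the arrays was 0.13 and 0.14. At an unadjusted p under 0.05 in limma 15 of the 101 members were higher and 8 lower, against 2837 and 3647 of all 18117 tested probes. With a trended variance limma called 27 members higher and 6 lower, against 4532 and 3221 of all tested probes. With median centring 74 members were called higher (59.5% of all probes were) and 0 lower (1.46% of all probes), all sharing a single variance in limma. The members' median was then 2.89, their range 0.18 to 5.01, and 68 of the 101 lay above the median of all tested probes, against 55 after loess. The filter favoured values above 0 in that setting: 43 of the 101 passed through the ADM-labelled RNA alone and 0 through the cell-labelled RNA alone. The Arf genes were spread around 0 with a median of -0.03 over 8 probes, although median centring gave 3.06, and the 3 Sar1 probes had a median of 0.47.

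**Figure D2:**
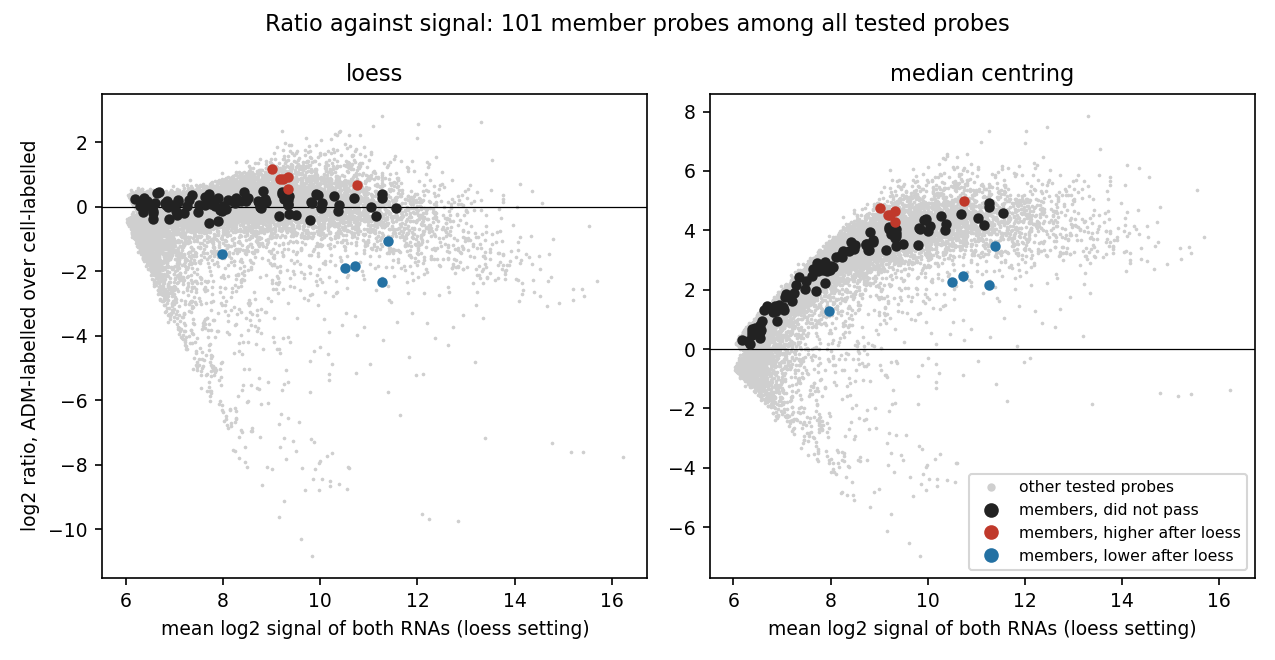
Log2 ratio (vertical axis, ADM-labelled over cell-labelled) against the mean log2 signal of both RNAs for all tested probes (grey) and the 101 members, after loess (left) and with median centring (right). The members run along the bulk of probes in both panels. The 5 blue probes lie below it on the left and below the other members of like signal on the right. All 101 members are above 0 there, of which 43 passed the filter through the ADM-labelled RNA alone.

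Transport between endoplasmic reticulum and Golgi held the most members. This group had 29 tested probes of 20 genes, with a median of 0.11. Of these 2 were higher (6.9%, against 5.53% of all probes), 2 were lower (6.9%, against 10.9%) and 25 did not pass. Here and in the groups below, a few calls in a small set are not a result about the group. Sar1b builds the COPII coat on vesicles that leave the endoplasmic reticulum. Its probe (mm7 chromosome 11, 51748355 to 51748414, plus strand) had net signals of 4927 in ADM-labelled and 32.0 in cell-labelled RNA in replicate 1, and of 1867 and 84.8 in replicate 2. The ratio was 0.76 and 0.99 on the arrays, a mean of 0.87 ± 0.17 (SD, n = 2), 1.83-fold, with an adjusted p of 0.0286. Its close relative Sar1a had 0.27 and 0.47 at its 2 probes, with adjusted p of 0.173 and 0.0632, so both genes lay above 0 and the test passed for Sar1b.

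Arf1 recruits the COPI coat to Golgi membranes. Its tested probe (mm7 chromosome 11, 59293765 to 59293824, minus strand) had net signals of 5860 and 2168 in the ADM-labelled and 35.4 and 96.1 in the cell-labelled RNA. The ratio was 0.83 and 1.04, a mean of 0.94 ± 0.15 (SD, n = 2) with an adjusted p of 0.0249. The other Arf1 probe lost its value on array 1 to a flag and had 0.97 on array 2, on the same side. Arf4, which acts beside Arf1 on the early Golgi, went the other way. Its net signals were 7189 and 2673 in ADM-labelled and 325 and 1035 in cell-labelled RNA (mm7 chromosome 14, 24047200 to 24047259, plus strand). The ratio was -1.80 and -1.84, a mean of -1.82 ± 0.02 (SD, n = 2) with an adjusted p of 0.0069, though it was 2.47 with median centring. Against the trend of its brightness the cell-labelled RNA thus held 3.53-fold more Arf4. The other Arf genes of this group lay near 0: Arf5 was at 0.02, Arf2 at 0.11, and Arf3 at -0.01 and -0.27.

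Rab1b, which governs the entry of cargo into the Golgi, gave opposite results at its 2 probes. The probe at mm7 chromosome 19, 4994209 to 4994268 (minus strand), had net signals of 5250 and 2309 in ADM-labelled and 253 and 1091 in cell-labelled RNA. Its ratio was -1.70 and -2.11, a mean of -1.90 ± 0.29 (SD, n = 2) with an adjusted p of 0.012, though 2.26 with median centring. The probe 176 bases downstream of it, at 4994033 to 4994092, had net signals of 22750 and 9868 against 205 and 564. There the ratio was 0.06 and 0.75, a mean of 0.41 ± 0.49, and it did not pass (adjusted p = 0.239). The sign of Rab1b after loess thus depends on the probe, whereas with median centring both were above 0 (2.26 and 4.91). Rab1a, listed as Rab1, lay at -0.01 and -0.51 and did not pass, and Rab2a, listed as Rab2, at -0.14 and 0.13. The brightest member of the group, Rab34, was at -0.02 with arrays of opposite sign (-0.29 and 0.25), and at 4.58 with median centring. Its other tested probe was at 0.40 ± 0.09 and did not pass (adjusted p = 0.0912). Arl1, which recruits golgins to the trans-Golgi, had 0.50 ± 0.09 and an adjusted p of 0.0607.

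**Figure D3:**
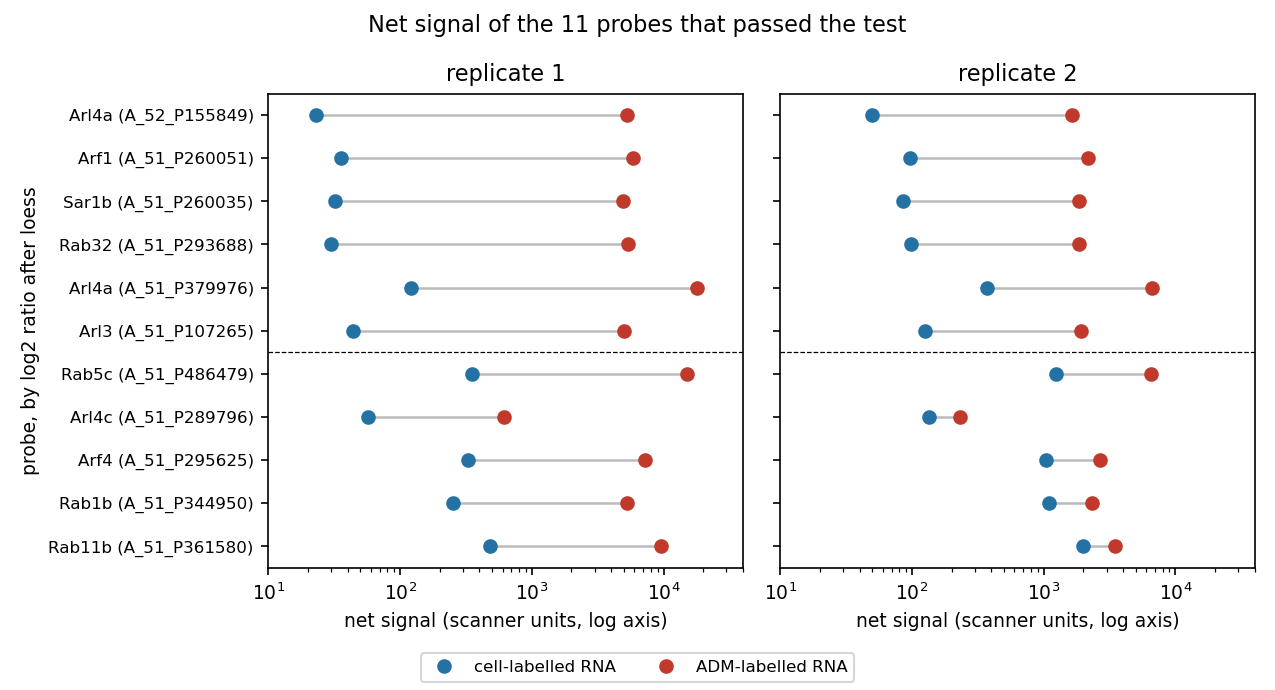
Net signal (spot minus local background, scanner units, log axis) in cell-labelled (blue) and ADM-labelled (red) RNA of the 11 probes that passed the test, in replicate 1 (left) and replicate 2 (right); the dashed line parts the 6 probes called higher from the 5 called lower after loess. The ADM-labelled point is to the right for every probe, and the gap is narrower for the called-lower probes, such as 482 against 9542 for Rab11b in replicate 1.

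The net signals, which loess has not touched, also set the called-higher probes apart from the called-lower ones, though not in the same order probe by probe. For the 6 probes called higher, ADM-labelled over cell-labelled net signal was 114 to 232 in replicate 1 and 15.4 to 32.5 in replicate 2, above the medians of 63.9 and 8.78 over all probes seen in both RNAs. For the 5 called lower it ran from 10.9 to 43.1 and from 1.72 to 5.22, below those medians on both arrays. These groups do not overlap on either array, which is a description of the values that made the calls and not a further test. Some uncalled members lay within these ranges, such as a Rab1 probe at 34.0 and 3.27 and, in replicate 1 alone, a Sar1a probe at 130. All 11 probes gave more net signal in the ADM-labelled RNA.

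On early endosomes, which receive cargo taken up at the surface, 12 probes of 7 genes were tested, with a median of -0.09. Of these 0 were higher (0 at an unadjusted p under 0.05 in limma, and 1 with a trended variance), and 1 was lower (8.33%, against 10.9% of all probes). Rab5c is 1 of the Rab5 forms that drive fusion of these endosomes. It had net signals of 15136 and 6521 in ADM-labelled and 351 and 1249 in cell-labelled RNA (mm7 chromosome 11, 100824424 to 100824483, minus strand). The ratio was -1.20 and -0.95, a mean of -1.07 ± 0.18 (SD, n = 2) with an adjusted p of 0.0222; it was 3.46 with median centring, and with the scanner's processed signals it did not pass (-0.94, adjusted p = 0.0522). Rab5a lay at -0.26 and 0.05 and Rab5b at -0.13 and 0.25, none of which passed. Rab21, Rab22a and Rab31, which act in uptake and sorting on the same endosomes, lay between -0.12 and 0.17.

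The recycling endosome returns receptors to the surface, and 13 probes of 7 genes were tested, with a median of 0.05. Of these 0 were higher (0 at an unadjusted p under 0.05 in limma, 1 with a trended variance), and 1 was lower (7.69%, against 10.9% of all probes). Rab11b had the lowest ratio of all tested members after loess; by net signal on each array Arl4c lay lower (10.9 and 1.72, against 19.8 and 1.73). Its probe at mm7 chromosome 17, 31821584 to 31821643 (minus strand), had net signals of 9542 and 3448 in ADM-labelled and 482 and 1997 in cell-labelled RNA. The ratio was -2.19 and -2.49, a mean of -2.34 ± 0.22 (SD, n = 2) with an adjusted p of 0.00625, so that relative to probes of like brightness the cell-labelled RNA held 5.06-fold more, though median centring gave 2.15. The other Rab11b probe, whose coordinates (31822646 to 31823401) span 756 bases, lay 1410 bases upstream between the centres. It had 391 and 188 in ADM-labelled and 15.0 and 18.2 in cell-labelled RNA, with a ratio of 0.02 ± 0.21 (adjusted p = 0.906). Rab11a, the close relative that shares the recycling endosome, had 0.12, 0.17 and 0.05 at its 3 probes, none of which passed. Rab15 was the next lowest of the group at -0.39 ± 0.42 (-0.09 and -0.69 on the arrays, adjusted p = 0.223; 0.36 with median centring). Rab4a, of fast recycling, was at 0.19, Rab14 at 0.16, 0.20 and 0.02, and Rab35 at 0.27.

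Late endosomes and lysosomes had 9 tested probes of 7 genes, with a median of 0.27. Of these 1 was higher (11.1%, against 5.53% of all probes) and 0 lower (against 10.9%). At an unadjusted p under 0.05 in limma 3 were higher and 1 lower, and with a trended variance 5 were higher and 0 lower. Rab32 acts in the making of lysosome-related organelles and at contacts with mitochondria. It had net signals of 5350 and 1844 in ADM-labelled and 29.7 and 97.9 in cell-labelled RNA (mm7 chromosome 10, 10245027 to 10245086, minus strand). The ratio was 0.89 and 0.83, a mean of 0.86 ± 0.04 (SD, n = 2) with an adjusted p of 0.0247. Rab7, the main late endosome Rab, was at 0.11 and Rab9, of transport back to the Golgi, at 0.34, and neither passed. Arl8a and Arl8b, which move lysosomes along microtubules, lay on opposite sides of 0 after loess, at -0.42 for Arl8a (3.50 with median centring) and at 0.37, 0.27 and 0.21 for Arl8b, and none of these passed.

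Exocytosis had 11 tested probes of 6 genes, none of which passed in either direction (1 higher and 1 lower at an unadjusted p under 0.05 in limma; 3 higher with a trended variance); the median was 0.19. Rab3d, known from adipocytes, lay at 0.46 and -0.39 at its 2 probes, with adjusted p of 0.0688 and 0.114, and Rab3a at 0.33. Rab10, which brings GLUT4 vesicles to the surface, had 0.24, 0.17 and 0.23. Among GTPases of cilia and microtubules, with a median of 0.08, 0 of 13 tested probes were lower (1 at an unadjusted p under 0.05 in limma, 0 with a trended variance). Of the 13, 1 was higher (7.69%, against 5.53% of all probes). That probe was Arl3, which delivers lipid-modified proteins to the cilium. It had 4997 and 1926 in ADM-labelled and 43.8 and 125 in cell-labelled RNA, and its ratio was 0.51 and 0.61, a mean of 0.56 ± 0.08 (SD, n = 2). Its adjusted p of 0.0488 was the nearest of the calls to the threshold and rose to 0.0655 with processed signals and 0.0743 with a smaller background offset. The probe's coordinates (mm7 chromosome 19, 46439171 to 46448214, minus strand) are longer than the probe, as the files list it. Arl13b, which activates Arl3, lay at -0.43, -0.24 and -0.12, and Arl2 at -0.22 and 0.15, none of which passed.

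The Arl4 proteins act at the plasma membrane, where they recruit activators of Arf6, and they are in the set without an assigned role. Of its 12 tested probes (median 0.29), 2 were higher (16.7%, against 5.53% of all probes) and 1 lower (8.33%, against 10.9%). Arl4a was the highest of all tested members after loess. Its probe at mm7 chromosome 12, 37869846 to 37869905 (minus strand), had net signals of 5295 and 1626 in ADM-labelled and 22.9 and 50.02 in cell-labelled RNA. The ratio was 1.05 and 1.31, a mean of 1.18 ± 0.18 (SD, n = 2), 2.27-fold, with an adjusted p of 0.0195. A second Arl4a probe (37869391 to 37869450) had 17814 and 6636 against 122 and 370, a ratio of 0.69 ± 0.18 and an adjusted p of 0.0423, which was 0.0652 with processed signals. The remaining Arl4a probe was not well above background in cell-labelled RNA on either array and had 0.46 (adjusted p = 0.0734). Arl4c was lower after loess: it had 620 and 232 in ADM-labelled and 56.8 and 135 in cell-labelled RNA (mm7 chromosome 1, 88603849 to 88603908, minus strand). Its ratio was -1.23 and -1.67, a mean of -1.45 ± 0.31 (SD, n = 2) with an adjusted p of 0.0194, though 1.29 with median centring. Arl4d, with 2167 and 1353 against 112 and 415, lost array 1 to a flag and had -1.37 on array 2 (1.48 with median centring). A change of at least 2-fold on both arrays, counted after the values were seen, was met by 1 member above (the first Arl4a probe, against 1.11% of all tested probes) and by 4 below (Rab11b, Rab1b, Arf4 and Arl4c, against 6.48%).

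The following differences between close relatives, within each array, were picked after the values were seen and are given without a test. Arf1 exceeded Arf4 by 2.76 ± 0.17 log2 units of ratio (SD, n = 2; 2.19 with median centring), Arl4a exceeded Arl4c by 2.14 ± 0.48 (3.72), and Rab11a exceeded Rab11b by 2.45 ± 0.44 (1.90), using the brightest tested probe of each. The Rab11b difference rests on the probe called lower. After loess the other Rab11b probe was at 0.02, beside 0.12 for the Rab11a probe used. For Rab5a over Rab5c the difference was 0.82 ± 0.04 after loess but 0.07 with median centring, where the arrays differed in sign. For Sar1b over Sar1a it was 0.61 ± 0.16 after loess and -0.26 with median centring, where the arrays again differed in sign. The second Rab1b probe and Rab1 differed by -0.02 on array 1 and 0.85 on array 2, less on average than the spread of the arrays (0.42 ± 0.62).

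Probes of the same gene were compared after loess. Of 31 members with more than 1 tested probe, 26 had probes within 0.5 log2 units of each other, and the median gap was 0.22. In 11 genes the probes lay on opposite sides of 0. The gap exceeded 1 log2 unit for Rab11b (2.36) and Rab1b (2.31), which are 2 of the 5 genes with a probe called lower. With median centring the Rab11b probes were at 2.15 and 1.90, in the opposite order to loess, while the Rab1b probes stayed apart at 2.26 and 4.91. Of the other 3, Rab5c and Arf4 had a single tested probe, and the second Arl4c probe was not above the filter.

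**Figure D4:**
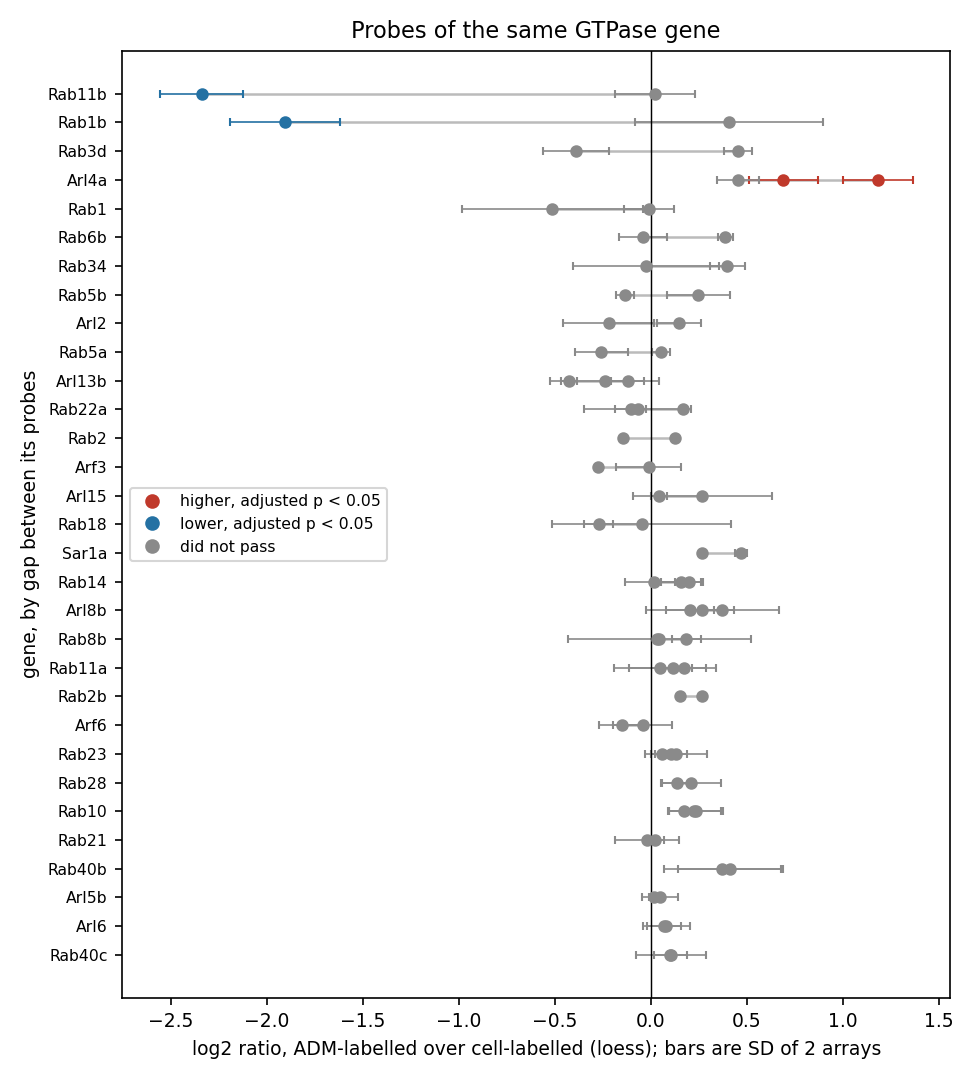
Mean log2 ratio after loess (horizontal axis; bars are the SD of 2 arrays) of each tested probe of the 31 genes with more than 1, ordered by the gap between their lowest and highest probe. The gap is 2.36 for Rab11b and 2.31 for Rab1b, and under 0.5 for 26 genes.

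GTPases known from vesicle release and from GLUT4 transport were read as sets of their own, which overlap the groups above. For release of exosomes and related vesicles the set held Rab27a, Rab27b, Rab35, Rab11a, Rab11b, Rab7, Rab31, Arf6 and Rab5a, and 12 of its 19 probes were tested. None was higher (0 at an unadjusted p under 0.05 in limma, 1 with a trended variance), and the median was 0.04. The Rab11b probe above was lower, 1 of the 12 (8.33%, against 10.9% of all probes). Rab27a and Rab27b, which dock multivesicular bodies at the plasma membrane, were not above background. Rab35, with net signals of 14490 and 5484 against 142 and 421, had the highest log2 ratio of the set, 0.27 ± 0.17 (adjusted p = 0.203). Rab31 lay at -0.12 (2.67 with median centring) and Arf6, which regulates membrane traffic at the surface, at -0.15 and -0.04 (2.03 and 3.35). In the GLUT4 set of 10 genes, 17 probes were tested and none passed (0 at an unadjusted p under 0.05 in either direction in limma, 1 higher with a trended variance); its ratios ran from -0.26 to 0.27 with a median of 0.12. Rab8a was at 0.27 and Rab13 at 0.06, while Rab4b had no tested probe. Rab18, which coats lipid droplets, had 3181 and 1200 against 60.7 and 171 at its first probe, and 8393 and 2413 against 85.4 and 341 at its second. The ratios were -0.27 and -0.05 after loess and 3.34 and 3.97 with median centring, and neither passed.

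The 24 probes seen on both arrays in ADM-labelled RNA and on neither in cell-labelled RNA belonged to Arf2, Arl4a, Arl5a, Arl5b, Arl15, Rab2b, Rab5b, Rab6, Rab8b, Rab11a, Rab14, Rab21, Rab22a, Rab23, Rab30, Rab33b, Rab40b and Rab40c. The pattern is one of probes and not always of the gene. Arl4a, Arl15, Rab2b, Rab6, Rab11a, Rab14, Rab21, Rab22a, Rab23 and Rab40c each had another probe well above background in cell-labelled RNA on both arrays. The 24 probes were dim in both RNAs, with net signals such as 221 and 87.6 against 10.4 and 9.20 for Arf2. None passed the test, and 2 of them, for Arl5a and Rab6, had no value on 1 array. The log2 ratios of the rest ran from -0.02 for Rab21 (1.29 with median centring) to 0.46 for Arl4a. The cell-labelled side of these probes was not well above background, so no fold is given.

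The regulators, coats and effectors of these GTPases were taken as 9 lists with 308 probes, of which 201 were tested. Of these, 10 were higher (4.98%, against 5.53% of all probes) and 12 lower (5.97%, against 10.9%), with a median of 0.11. In the COPI coat, which Arf1 recruits, 3 of 15 tested probes were higher and 0 lower (1 lower at an unadjusted p under 0.05 in limma): Copb1, the beta subunit, at 0.95 ± 0.22 (adjusted p = 0.0288), and Copg2, a gamma subunit, at 0.93 ± 0.06 and 0.76 ± 0.17. A dimmer Copb1 probe at 0.19 (adjusted p = 0.382) and a dimmer Copg2 probe at 0.11 (adjusted p = 0.558) did not pass. In the COPII coat, which Sar1 recruits, 0 of 16 passed (4 higher and 1 lower at an unadjusted p under 0.05 in limma). The Gdi2 product, which extracts Rabs from membranes, was higher at 0.64 ± 0.13 (adjusted p = 0.0425), the only call among 9 tested probes for lipid attachment and recycling of Rabs. A brighter Gdi2 probe, with 21490 and 8413 against 254 and 779, lost array 1 to a flag and had 0.08 on array 2, where the called probe had 0.73. Rabac1, a receptor for prenylated Rabs, was at -0.91 ± 0.50 and did not pass (adjusted p = 0.0623; 3.76 with median centring).

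Among activators and inactivators the calls went in both directions, where 5.53% of all tested probes were higher and 10.9% lower. Of the exchange factors, 1 of 26 Rab activator probes was higher (Mon1b, of the Rab7 activator, 0.63) and 1 lower (Rin3, a Rab5 activator, -1.48), and 0 of 14 Arf activator probes were higher (1 at an unadjusted p under 0.05 in limma) and 2 lower. The latter were a probe of Pscd4, now called Cyth4, at -2.56 ± 0.35 (adjusted p = 0.00782, and 0.85 with median centring), and a Psd probe at -1.17 (1.37 with median centring). The called Pscd4 probe had 852 and 615 in ADM-labelled RNA. Other Pscd4 probes were dim and not tested, the brightest of them in replicate 1 with 29.1 and 14.4. Another Psd probe was also not tested. Rab inactivators had 2 higher and 2 lower of 35, from Tbc1d10c at -2.61 to Rab3gap2 at 0.57. The other tested Rab3gap2 probes, which were dimmer, lay at 0.31 and 0.18 and did not pass. Arf inactivators had 2 higher and 1 lower of 30, with Elmod2 highest at 1.27 ± 0.25 (adjusted p = 0.0203) and Centa1, now Adap1, at -1.43. Of the effectors, 0 of 26 Arf effector probes were higher (2 at an unadjusted p under 0.05 in limma) and 3 lower, with Plekha3 lowest at -0.99 (1.58 with median centring) and Gga3, a Golgi adaptor, at -0.63 (1.42). A brighter Plekha3 probe was at -0.18 and did not pass (adjusted p = 0.306). Another Gga3 probe had 0.19 on array 1 and no value on array 2.

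Of 30 Rab effector probes, 1 was higher (Rabep2, an effector of Rab5, 0.56), which is 3.33%, and 3 were lower (10.0%, against 10.9% of all probes). Among the lower were a Rab11fip5 probe at -2.61 and a Rims1 probe at -1.72. A brighter Rab11fip5 probe was at -0.04 and did not pass (adjusted p = 0.816). The other lower probe was of Rph3al, which binds Rab3 and Rab27 on secretory vesicles. It had net signals of 11.2 and 13.6 in ADM-labelled RNA, where it was not well above background on either array, and of 153 and 294 in cell-labelled RNA, through which alone it passed the filter. Its adjusted p was 0.00509; the ADM-labelled side holds no more than a bound, so no fold is given.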

How the data were processed

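RNA of ADMs and of donor adipocytes was hybridised to 2 two-colour Agilent mouse arrays, 1 per replicate, on 1 slide and in 1 scan. The scans were read with Feature Extraction 10.5.1.1, and the intensities of spot and local background were deposited unnormalized, per the file headers, with probe coordinates of build mm7. The deposited log10 ratios were background-subtracted and dye-normalized by that software, per the file headers; the series table repeats them as ADM over cell (largest difference 5e-06, column medians 0). Background was corrected by normexp (offset 50), ratios were normalized by loess within each array, array 2 was turned, and spots of a probe were averaged. Outlier-flagged spots were left out (2566 on array 1 and 1942 on array 2), 2303 and 1710 of them for an outlying local background; this choice was made by an earlier analysis after it had seen no call without it. Detection of a probe on an array required the scanner's flag of signal well above background on 50% or more of its spots. Probes were tested with limma 3.58.1 (R 4.3.3) and Benjamini-Hochberg adjustment at 0.05, with 1 residual and 2.91 prior degrees of freedom; with median centring the prior was infinite, so those p-values share a single variance. The code was tested on simulated data in which both channels shared a common base signal, so that test does not cover the dim cell-labelled channel of these arrays.

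Members, gene lists and alternatives were chosen with earlier results of these data known. Named by rule were the 10 highest and 10 lowest tested members, the vesicle release, GLUT4 and lipid droplet lists, members with probes at least 1 log2 unit apart across 0, members seen in 1 RNA only, and the called extremes and brightest member of each list; others are named as relatives of these, chosen after their values were seen. RefSeq (GRCm38.p6) matched 125 of 152 member probes. The labels call the replicates biological but do not describe separate cultures, so p-values measure the spread between these arrays. No probe was saturated. The number of arrays limits the precision.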

Additional observations from a re-analysis of the deposited data

How the results depend on the processing

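The design held 2 arrays and 1 residual degree of freedom, and the cell-labelled channel was the dimmer. Leaving out an array leaves no spread for a test, so counts of calls were not recomputed that way; the members' median then ran from 0.08 to 0.13, and members well above background from 110 to 111 in ADM-labelled and from 65 to 85 in cell-labelled RNA. No paired analysis was possible because the design has 1 group, in which each ratio already sets the RNAs of a replicate against each other. The count of members called higher (6) was 74 with median centring (59.5% of all probes), 29 with processed signals (32%) and 27 with a trended variance (4532 of all 18117 tested probes). It was 10 with scaling between arrays and 0 with outlying local backgrounds kept. In both directions together, scaling called 16 of 101 members and 4795 of 18117 probes. The count called lower (5) was 0 with median centring (1.46% of all probes) and 0 with those backgrounds kept. Of the 11 calls, 11 were kept without the filter, with the filter on both RNAs, with trend and with scaling, 10 with the smaller offset and with robust moderation, 8 with processed signals, 8 of 9 tested with the brightest probe per gene, 6 with median centring and 0 with outlying backgrounds kept (adjusted p = 0.547 for each). The members' median (0.11) was 2.89 with median centring, 0.50 with processed signals, 0.031 with outlying backgrounds kept and 0.047 without the filter. For the pathway lists, 10 higher became 134, 72 and 0, and 12 lower became 1 with median centring and 0 with backgrounds kept. Sign reversals with a call on either side occurred only with median centring, in 20 of 81 named probes; a further 3 changed sign with no call there, as did 5 with processed signals, 11 with backgrounds kept, 1 with the smaller offset, 5 without replicate 1 and 9 without replicate 2. Median centring gave 2.15 for Rab11b, 2.26 for Rab1b, 2.47 for Arf4, 1.29 for Arl4c, 3.46 for Rab5c, 1.95 for Rab1, 2.24 for Arl13b, 3.50 for Arl8a, 3.34 and 3.97 for Rab18, 3.54 for Rab5a, 3.49 for Arl2, 2.03 and 3.35 for Arf6, 2.67 for Rab31, 4.58 for Rab34, 0.85 for Pscd4, 1.37 for Psd, 1.58 for Plekha3 and 1.42 for Gga3. That setting leaves the trend with brightness in place, and its all-probe median was 2.04. The cause of the other changes was not tested.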
